A study of Mus musculus with 7 samples.

Results

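Scavenger receptors are surface and lysosomal proteins that bind modified lipoproteins, cell debris, microbes and, for some of them, carriers of hemoglobin and iron. Reads were counted for 9 of their genes, Marco, Msr1, Cd36, Cd163, Scarb1, Scarb2, Stab1, Colec12 and Scara5, which are 9 of the 40873 genes analysed. They were taken by gene name from the count table. Marco, which had more counts in every library of embryos treated with red blood cells (RBC) than in any saline library, was the reason for taking the family, so its values are given as a description with no test. The tissue was choroid plexus of the lateral ventricles, the epithelium and vascular stroma that secrete cerebrospinal fluid, from wild-type CD-1 mouse embryos, an outbred stock. There were 3 libraries of embryos treated with washed RBC from an E14.5 donor litter (E, embryonic day) and 4 libraries of embryos given saline, all collected 24 h after treatment at E15.5 and all of batch 1. Choroid plexus was pooled for each library, and the sources used here do not state how many embryos or litters made up a pool, so p-values measure the spread between these pools. In bulk tissue, more or fewer cells of a type and more or less RNA per cell cannot be told apart.

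The family is grouped into classes by structure. Class A receptors carry a collagen-like stalk: Marco and Msr1 are made mostly by macrophages and take up particles and modified lipoproteins, Colec12 is a collagen-stalked lectin of endothelial and stromal cells, and Scara5 binds ferritin and is known from epithelial and stromal cells. Class B receptors span the membrane at both ends: Cd36 takes up long-chain fatty acids and oxidized lipoprotein, Scarb1 exchanges cholesterol with high-density lipoprotein, and Scarb2 is a protein of the lysosomal membrane. Stab1 is a class H clearance receptor of macrophages and sinusoidal endothelium. Cd163, of class I, takes up complexes of hemoglobin with haptoglobin and is made by tissue macrophages, among them those at brain borders.

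Total counts ran from 4393860 to 8386928 per library, and values are given as counts or as CPM (counts scaled to a common library size after TMM normalization). RBC 2, RBC 3 and saline 4 stood apart from the rest of their groups. Saline 4 held RNA of hepatocyte markers, whose summed level was 1436.3 CPM there, against 1.93 to 19.0 CPM in the other saline libraries and 2.14 to 10.2 CPM in the RBC libraries. RBC 2 had the highest summed level of neutrophil and monocyte markers, 103.2 CPM, where the other 6 libraries had 4.66 to 24.8 CPM. RBC 3 had the highest summed levels of endothelial markers (1511.7 CPM) and stromal markers (3169 CPM). The tissue's own markers were present in every library, with summed epithelial markers (Ttr, Clic6 and 8 others) at 18375 to 19835 CPM with RBC and 18475 to 23448 CPM with saline.

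Per length of exon, the receptors ran from abundant genes with little spread to scarce genes with a wide one. Colec12 was the most abundant, with 91.3 ± 6.66 CPM per kb of exon with RBC and 84.4 ± 6.26 with saline (SD, n = 3 and n = 4). Scara5 had 34.5 ± 1.20 with RBC and 35.8 ± 1.29 with saline, and Scarb2 had 32.5 ± 1.46 with RBC and 30.4 ± 1.49 with saline. Their ranges overlapped with RBC (33.5 to 35.8 for Scara5, 31.2 to 34.1 for Scarb2) and did not with saline (34.1 to 37.1 for Scara5, 29.1 to 32.5 for Scarb2). Stab1 stood next with RBC at 18.8 ± 4.75, followed by Scarb1 at 11.8 ± 1.09. With saline Scarb1 (13.7 ± 0.99) and Stab1 (12.6 ± 1.33) overlapped. The 4 scarcest genes had 4.29 ± 1.14 (Cd36), 3.19 ± 2.22 (Msr1), 2.04 ± 0.98 (Cd163) and 1.99 ± 0.69 (Marco) with RBC, and their ranges overlapped along that order. With saline Cd36 had 1.84 ± 0.63, Cd163 1.03 ± 0.58, Msr1 0.63 ± 0.22 and Marco 0.144 ± 0.071, and Marco was the lowest of the 9 in every saline library.

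**Figure D1:**
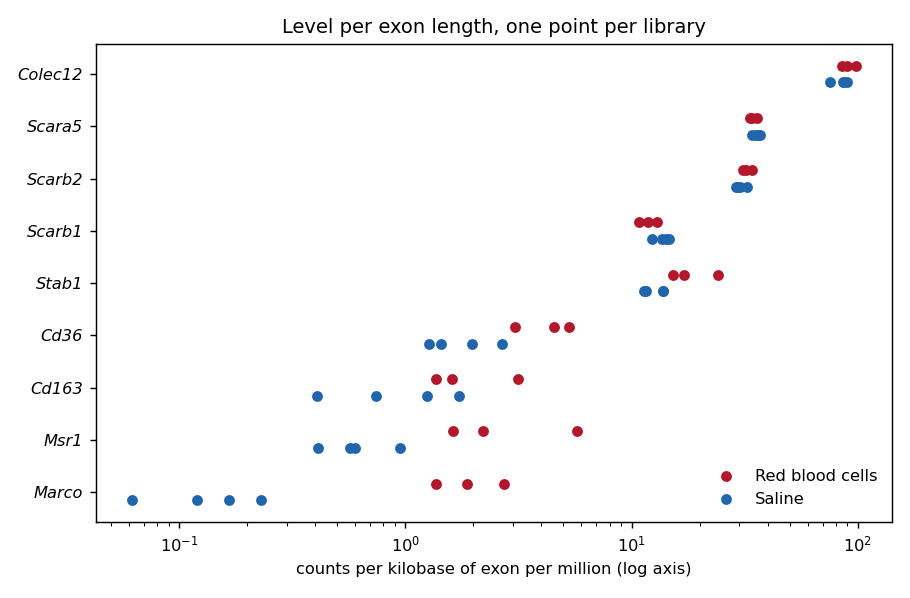
Level of each receptor gene in CPM per kb of exon (log axis), 1 point per library, red for the 3 RBC libraries and blue for the 4 saline libraries. Colec12, Scara5 and Scarb2 lie at the high end with groups that overlap, and Marco lies at the low end with saline points between 0.062 and 0.230 and RBC points between 1.37 and 2.74.

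Marco encodes a macrophage receptor with a collagenous stalk that binds particles and bacteria, and its gene spans 120402267 to 120432753 of chromosome 1 on the minus strand (GRCm39, as are all gene positions here). It had 21, 35 and 20 counts in RBC 1 to 3, against 3, 2, 1 and 1 counts in saline 1 to 4. Each RBC library had more counts than the saline libraries together, which held 7 counts in all. In CPM it had 2.63, 5.27 and 3.61 with RBC and 0.442, 0.320, 0.119 and 0.230 with saline. Summed over libraries and divided by total counts, the ratio of RBC to saline was 13.8, with an exact 95% interval of 6.4 to 35.6 that covers counting error only, and it was 11.2 without RBC 2, the library with the most neutrophil and monocyte marker counts. The fitted log2 fold change was 3.72 ± 0.47 (SE). Saline libraries sat at or under 3 counts, so their order is not resolved at this depth.

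The 250 bases before the Marco start are shown beside those of Cd163, the macrophage receptor of this set whose groups overlapped, and of Stab1, whose groups did not. They come from the RefSeq promoter table on build GRCm38.p6, in the direction of the gene, which holds 5 of the 9 genes (Marco, Cd36, Cd163, Scarb2 and Stab1). Capitals mark the letters GAGGAA, a core that the macrophage factor PU.1 can bind.
Marco, chr1:120505025-120505274, minus strand: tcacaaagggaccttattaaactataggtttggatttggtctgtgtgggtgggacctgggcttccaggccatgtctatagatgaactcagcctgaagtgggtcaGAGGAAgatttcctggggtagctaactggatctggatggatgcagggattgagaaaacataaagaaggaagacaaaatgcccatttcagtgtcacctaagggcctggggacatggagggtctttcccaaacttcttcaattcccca
Stab1, chr14:31168642-31168891, minus strand: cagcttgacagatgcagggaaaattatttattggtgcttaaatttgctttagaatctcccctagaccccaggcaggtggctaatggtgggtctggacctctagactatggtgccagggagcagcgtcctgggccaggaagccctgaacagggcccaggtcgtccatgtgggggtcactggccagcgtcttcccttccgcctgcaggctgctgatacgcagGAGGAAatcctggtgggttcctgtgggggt
Cd163, chr6:124304401-124304650, plus strand: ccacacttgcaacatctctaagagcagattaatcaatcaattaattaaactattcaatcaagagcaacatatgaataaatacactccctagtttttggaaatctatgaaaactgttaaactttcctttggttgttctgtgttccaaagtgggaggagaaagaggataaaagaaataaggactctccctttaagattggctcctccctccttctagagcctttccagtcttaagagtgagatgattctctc
GAGGAA was found 146 to 141 bases before the start of Marco and 30 to 25 bases before that of Stab1. The windows of Cd163, Scarb2 and Cd36 did not hold it, and the Cd36 groups did not overlap either. The last bases of the Cd36 entry, past its start, matched no GENCODE transcript of that gene, unlike those of the other windows. Whether the Cd36 window lies before a start used in this tissue is not known. A link between this motif and the difference between groups was not tested. GAGGAA was searched on both strands, and 23.3% of 32851 promoter windows of the same length hold it. Also searched on both strands were TGANTCA (AP-1; 6.75% of windows), TGANNNNGC (the core of the antioxidant response element; 35.2%) and the NF-kB kappaB motif (7.25%). None of these lay in the windows of Marco, Stab1, Cd163 or Cd36. The Scarb2 window held a stretch whose letters fit the kappaB motif on each strand, and 2 matches to TGANNNNGC. These stretches did not overlap each other.

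Msr1 (chromosome 8, 39996284 to 40095790, minus strand) encodes the class A macrophage receptor for acetylated and oxidized lipoprotein. It had 18.8, 49.0 and 13.9 CPM in RBC 1 to 3, against 4.86, 3.52, 5.13 and 8.06 CPM in saline 1 to 4. Every RBC library was above every saline library, and RBC 2, which also had the most macrophage and neutrophil marker counts per library size, was far above the other 2. The log2 fold change was 2.37 ± 0.51 (edgeR adjusted p = 0.176 over all genes). Without RBC 2 it was 1.64 and passed (edgeR adjusted p = 0.0388), as it did without RBC 2 and saline 4 (1.86, adjusted p = 0.0068) and with DESeq2 (adjusted p = 2.12e-06). Over all 17 alternatives, of which 3 passed, its adjusted p lay between 2.12e-06 and 0.447.

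**Figure D2:**
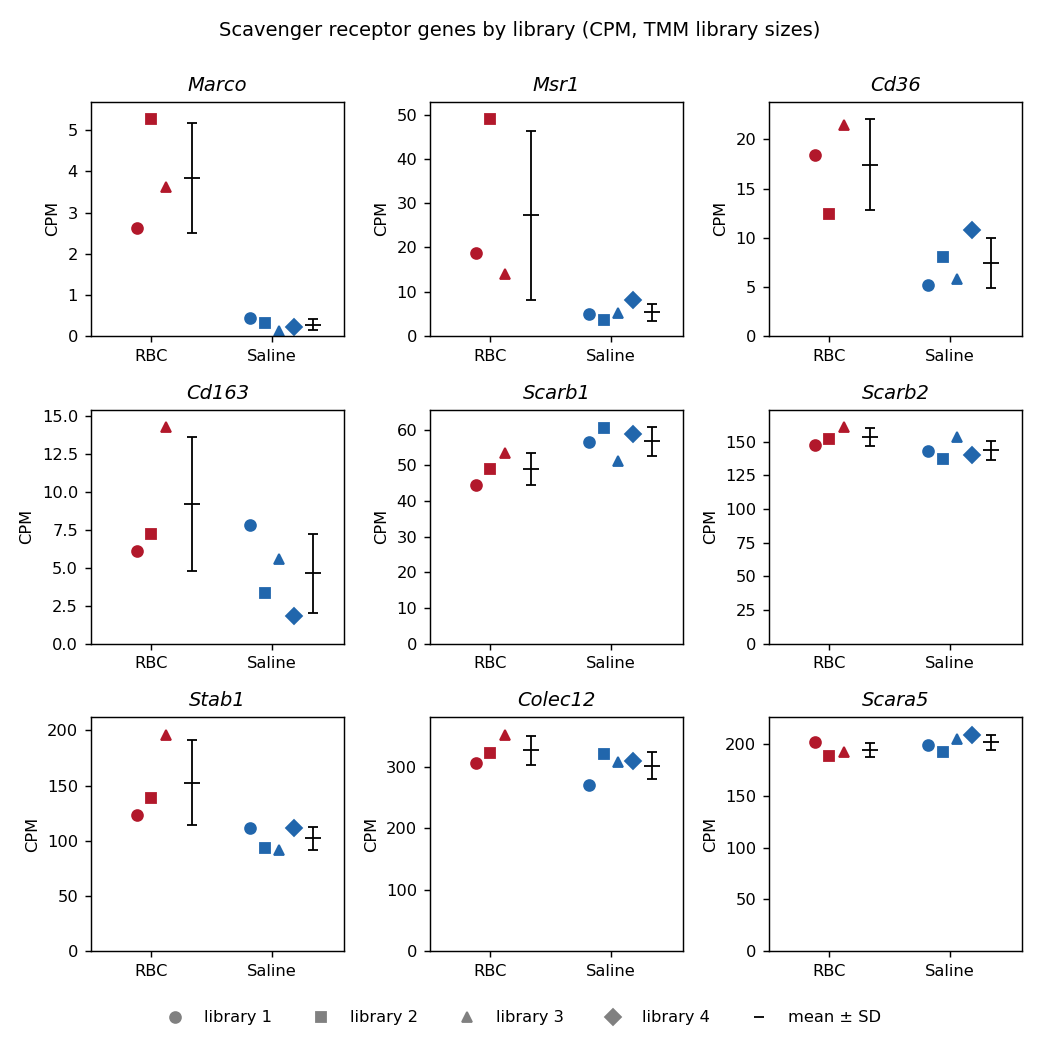
CPM of the 9 receptor genes in each library, with RBC left of saline, a marker shape for each library number and black bars for the mean ± SD (n = 3 and n = 4). Marco, Msr1, Cd36 and Stab1 have every RBC library above every saline library. Marco and Msr1 peak in RBC 2, and Cd36, Cd163 and Stab1 in RBC 3.

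Among class B receptors, Cd36 was higher with RBC, while Scarb1 and Scarb2 differed little, with fitted folds of 0.862 and 1.07. Cd36 (chromosome 5, 17986688 to 18093957, minus strand), the fatty acid and oxidized lipoprotein receptor of macrophages, endothelium and platelets, had 18.4, 12.4 and 21.5 CPM in RBC 1 to 3. In saline 1 to 4 it had 5.16, 8.0, 5.84 and 10.8 CPM, so the groups did not overlap, although RBC 2 and saline 4 lay close together. Summed platelet markers overlapped, at 16.5 to 24.1 CPM with RBC and up to 21.7 CPM with saline. The Cd36 log2 fold change was 1.25 ± 0.26 (edgeR adjusted p = 0.128). Without RBC 2 and saline 4 it was 1.66 (edgeR adjusted p = 0.00814), and it also passed with DESeq2 (adjusted p = 0.00269) and with no count filter (adjusted p = 0.0283). Over the 17 alternatives its adjusted p lay between 0.00269 and 0.324.

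Scarb1 (chromosome 5, 125354151 to 125418158, minus strand), the receptor for high-density lipoprotein, had 44.5, 49.0 and 53.4 CPM with RBC and 56.6, 60.6, 51.2 and 58.7 CPM with saline. Only RBC 3 reached into the saline range. The log2 fold change was -0.21 ± 0.09 (edgeR adjusted p = 0.471; unadjusted p = 0.0387). Scarb2 (chromosome 5, 92589170 to 92653516, minus strand), the lysosomal membrane protein, had 147.4, 151.6 and 160.9 CPM with RBC and 142.9, 137.4, 153.3 and 139.8 CPM with saline. Its log2 fold change was 0.09 ± 0.07 (edgeR adjusted p = 0.746), a difference smaller than the range within either group.

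Cd163, the receptor for hemoglobin bound to haptoglobin (chromosome 6, 124281596 to 124307488, plus strand), overlapped between groups. It had 6.14, 7.23 and 14.3 CPM in RBC 1 to 3, against 7.81, 3.36, 5.60 and 1.84 CPM in saline 1 to 4. Saline 1 was above RBC 1 and 2, and the log2 fold change was 0.92 ± 0.45 (edgeR adjusted p = 0.586). The estimate moved between 0.47 without RBC 3 and 1.26 without saline 1, and was 0.83 without RBC 2 and saline 4. Cd163 overlaps Gm52877 on the opposite strand, which held 51 counts over the libraries. The adjusted p was between 0.499 and 0.802 over the 17 alternatives. The transcripts of its ligands' parts differed in depth: the globin genes Hba-a1 and Hbb-bs had 806 ± 116 and 1145 ± 87.6 CPM with RBC and 837 ± 139 and 1153 ± 179 CPM with saline, while haptoglobin (Hp) had 2, 45 and 6 counts with RBC and 2, 4, 2 and 5 with saline and was not tested.

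Scara5, the class A receptor for ferritin (chromosome 14, 65903852 to 66002275, plus strand), had 201.7, 188.5 and 192.4 CPM with RBC and 199.2, 192.1, 204.9 and 208.9 CPM with saline. The groups overlapped, and the log2 fold change was -0.05 ± 0.06 (edgeR adjusted p = 0.88). Its coefficient of variation was the lowest of the 9 genes in both groups, 3.49% with RBC and 3.61% with saline. The genes of its ligand, the ferritin subunits Fth1 and Ftl1, were higher in every RBC library than in every saline library, with log2 fold changes of 0.51 ± 0.09 for Fth1 (edgeR adjusted p = 0.0809) and 0.35 ± 0.09 for Ftl1 (edgeR adjusted p = 0.157). DESeq2 called both. Under the alternatives their adjusted p spanned 5.01e-05 to 0.293 for Fth1 and 0.0105 to 0.415 for Ftl1.

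Stab1, the class H clearance receptor (chromosome 14, 30860974 to 30890616, minus strand), had 123.2, 138.4 and 196.2 CPM in RBC 1 to 3, against 111.2, 93.7, 91.9 and 111.7 CPM in saline 1 to 4. The groups did not overlap, with RBC 3 the highest, and the log2 fold change was 0.58 ± 0.16 (edgeR adjusted p = 0.23). It was 0.36 without RBC 3 and 0.69 without RBC 2 and saline 4. DESeq2 alone of the 17 alternatives called it (adjusted p = 0.00825; 0.00825 to 0.503 over the alternatives). RBC 3 also had the highest summed endothelial markers, 1511.7 CPM against 980.2 and 1083.9 CPM in RBC 2 and 1 and 1177 to 1272 CPM with saline. It had the highest summed stromal markers too, 3169 CPM against 1729 and 2028 CPM in RBC 2 and 1 and 2075 to 2272 CPM with saline. Their part in the Stab1 result was not tested. Stab1 overlaps Nt5dc2 on the opposite strand, which held 19695 counts over the libraries, and the sources used here do not state whether counting used strand. Colec12 (chromosome 18, 9707648 to 9877995, plus strand), the stromal and endothelial collectin, had 305.3, 321.9 and 352.2 CPM with RBC and 269.6, 321.2, 306.9 and 309.5 CPM with saline. It overlapped between groups, with a log2 fold change of 0.11 ± 0.08 (edgeR adjusted p = 0.73).

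All 9 genes passed the count filter, and the 8 other than Marco are counted here, since Marco was chosen on this comparison. The 8 were also taken with earlier results of these data known, so their counts are a description. Of the 8, 6 were higher and 2 lower with RBC, where 49.9% of the 14869 genes tested were higher. The groups did not overlap for 3 of the 8 (Msr1, Cd36 and Stab1, all higher), where 9.6% of all genes had groups that did not overlap and 5.02% had every RBC library above every saline library. The edgeR fit called 0 of the 8 and 9 of 14869 genes (0.0605%), and limma-voom 0 of the 8 and 0.0605% of all genes. Without adjustment 4 of the 8 had p under 0.05 in edgeR, against 9.54% of all genes. DESeq2 called 3 of the 8 (Msr1, Cd36 and Stab1) and 1.86% of all genes. Without RBC 2 and saline 4, edgeR called 2 (Msr1 and Cd36) and 0.267% of all genes. Without RBC 2 alone it called 1 (Msr1) and 0.225% of all genes, and with no count filter 1 (Cd36) and 0.522% of all genes. Under the other 13 of the 17 alternatives, among them the replicate block and each saline library left out, 0 of the 8 were called. The median log2 fold change of the 8 was 0.34, beside 0.00 over all genes, and 0.21 without RBC 3.

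**Figure D3:**
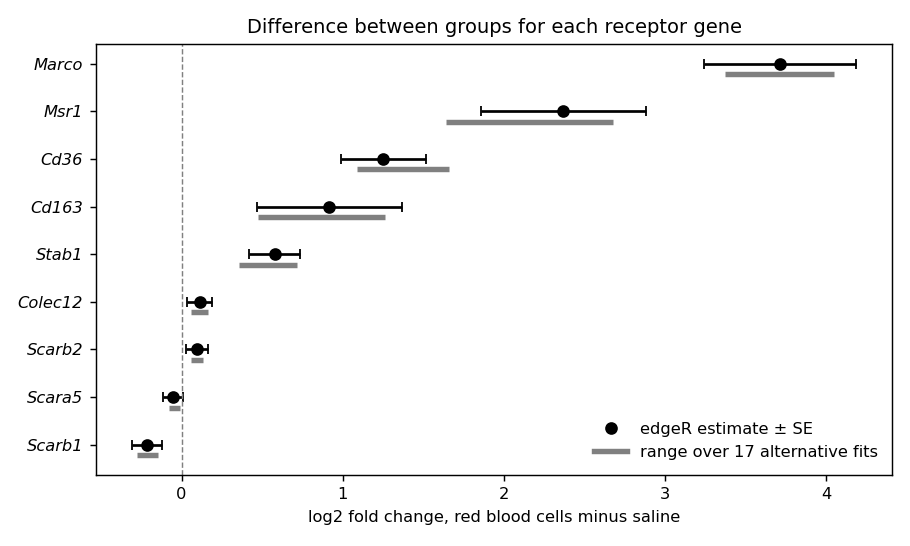
Log2 fold change of each receptor gene, RBC minus saline, with the edgeR estimate ± SE in black and the range over the 17 alternative fits as a grey bar. The grey bars of all 9 genes stay on the side of 0 of their estimate, from 3.37 to 4.05 for Marco to -0.28 to -0.14 for Scarb1.

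Macrophage markers were mostly higher with RBC, as were Msr1, Cd36 and Stab1, though few passed the test. Of 24 markers, 23 were higher and 1 (Folr2) lower with RBC, and the median log2 fold change was 0.94 beside 0.00 over all genes. This list and those below were chosen with earlier results of these data known, so their counts are a description. The groups did not overlap for 17 of the 24, against 9.6% of all genes. Adgre1, which encodes F4/80, was the only marker called (21.9, 30.9 and 27.8 CPM with RBC, 11.6, 12.3, 11.9 and 14.7 CPM with saline, edgeR adjusted p = 0.0280; 1.48e-05 to 0.172 over the alternatives). Without adjustment 20 of the 24 had p under 0.05 in edgeR, against 9.54% of all genes. DESeq2 called 12, against 1.86% of all genes, and limma-voom 0, against 0.0605%. The summed level of the 24 was 541, 894 and 703 CPM in RBC 1 to 3 and 317 to 443 CPM with saline, and no marker was at 0. Without RBC 2 the median was 0.63. The part of these markers in the receptor results was not tested.

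Markers of the other cell types were sparse or had medians near 0, and 1 library set some of them. Of 14 neutrophil and monocyte markers 4 had enough counts, all 4 were higher (median log2 fold change 2.01) and 0 were called by edgeR, DESeq2 or limma-voom, with 0 at an unadjusted p under 0.05. Without RBC 2 their median was -0.24, and without RBC 2 and saline 4 it was -0.14. The neutrophil marker Ly6g was at 0 in every library. Endothelial markers were higher for 6 and lower for 6 of 12, and stromal markers higher for 7 and lower for 2 of 9, with medians of 0.00 and 0.08. Without RBC 3 these medians were -0.25 for both. Epithelial markers were higher for 1 and lower for 9 of 10 (median -0.08). Erythroid markers, were higher for 2 and lower for 6 of 8 (median -0.09), and their summed level was 1941 to 2307 CPM with RBC and 1866 to 2648 CPM with saline.

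The receptors were also set against those markers. The Marco values use the counts it was chosen on and are a description. Per 1000 summed macrophage marker counts, Marco had 4.88, 5.80 and 5.19 counts in RBC 1 to 3, against 1.01, 1.01, 0.293 and 0.545 in saline 1 to 4. The ratio of the means was 7.41 for Marco, 2.69 for Msr1, 1.36 for Cd36, 1.14 for Cd163 and 0.85 for Stab1. Msr1 had 34.9, 53.8 and 20 with RBC and 11.1, 11.2, 12.6 and 19.1 with saline, so that RBC 3 lay just above saline 4. Cd36 overlapped (34.2, 13.6 and 30.9 with RBC, 11.7, 25.3, 14.3 and 25.6 with saline), and so did Cd163 (7.95 to 20.5 with RBC, 4.36 to 17.8 with saline). Stab1 had 229, 152 and 282 with RBC and 226 to 297 with saline. These ratios do not show which cells hold the transcripts, and they were not tested. Reading them as receptor RNA per macrophage would assume that macrophages hold the receptor and the marker transcripts alike, which was not tested. Cd36 and Stab1 are also known from endothelium. The markers in the sum were uneven as well, with fitted folds from 0.901 (Folr2) to 3.18 (Itgam).

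**Figure D4:**
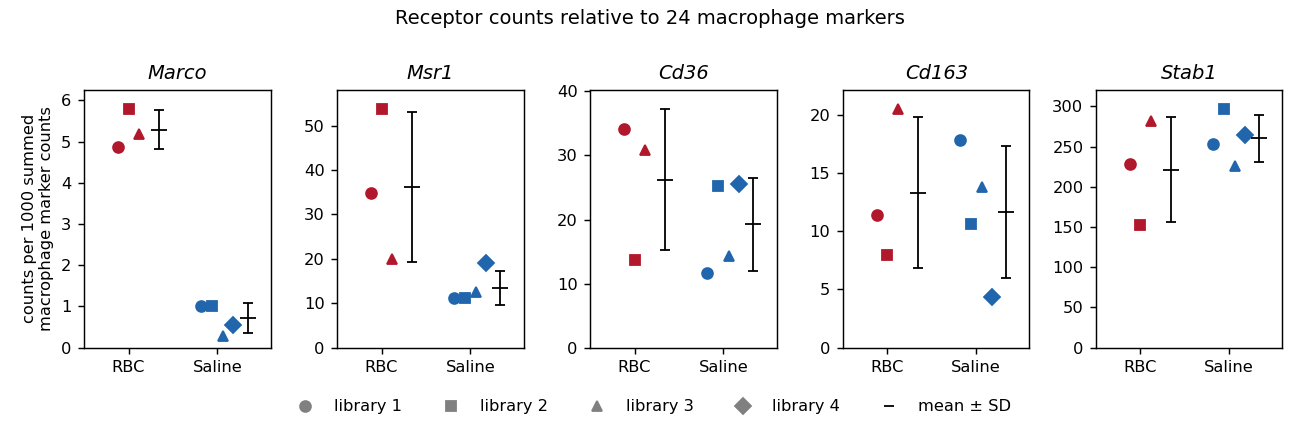
Counts of 5 receptor genes per 1000 summed counts of 24 macrophage markers in each library, with RBC left of saline and black bars for the mean ± SD (n = 3 and n = 4). Marco, chosen for its rise, has 4.88 to 5.80 with RBC against 0.293 to 1.01 with saline, Msr1 leaves a narrow gap (20 against 19.1), and Cd36, Cd163 and Stab1 overlap.

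Other scavenger receptor genes also held both genes higher with RBC and genes near saline. Of 22 further genes of classes A to L, 15 were tested, 11 higher and 4 lower, and 7 had too few counts, of which Cd6 and Dmbt1 were at 0 in every library. None was called by edgeR or limma-voom. In edgeR 6 had an unadjusted p under 0.05 (9.54% of all genes), and DESeq2 called 6 (1.86% of all genes). The median log2 fold change of the 15 was 0.25, beside 0.00 over all genes, 0.49 without RBC 1 and 0.00 without RBC 3. Lgals3bp, a secreted scavenger receptor cysteine-rich protein, had 480, 946 and 375 CPM with RBC and 163 to 173 CPM with saline (log2 fold change 1.83 ± 0.33, edgeR adjusted p = 0.142; 6.16e-05 to 0.383 over the alternatives). Mrc1, the mannose receptor of macrophages, had 80.0, 117 and 156 CPM with RBC and 63.8 to 81.3 CPM with saline (0.74 ± 0.21, edgeR adjusted p = 0.274; 0.00393 with DESeq2 to 0.755 over the alternatives). Lrp1, which takes up heme bound to hemopexin, was lower in every RBC library (925, 1050.2 and 953 CPM) than in every saline library (1102 to 1216 CPM), with a log2 fold change of -0.24 ± 0.07 (edgeR adjusted p = 0.185; 0.0189 with DESeq2 to 0.465 over the alternatives), and Lrp2 had -0.11 ± 0.14. Chosen after their values were seen, Cxcl16 (2.03 ± 0.58), Cd44 (1.35 ± 0.32) and Cd68 (0.87 ± 0.18) were also higher in every RBC library than in every saline library.

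**Figure D5:**
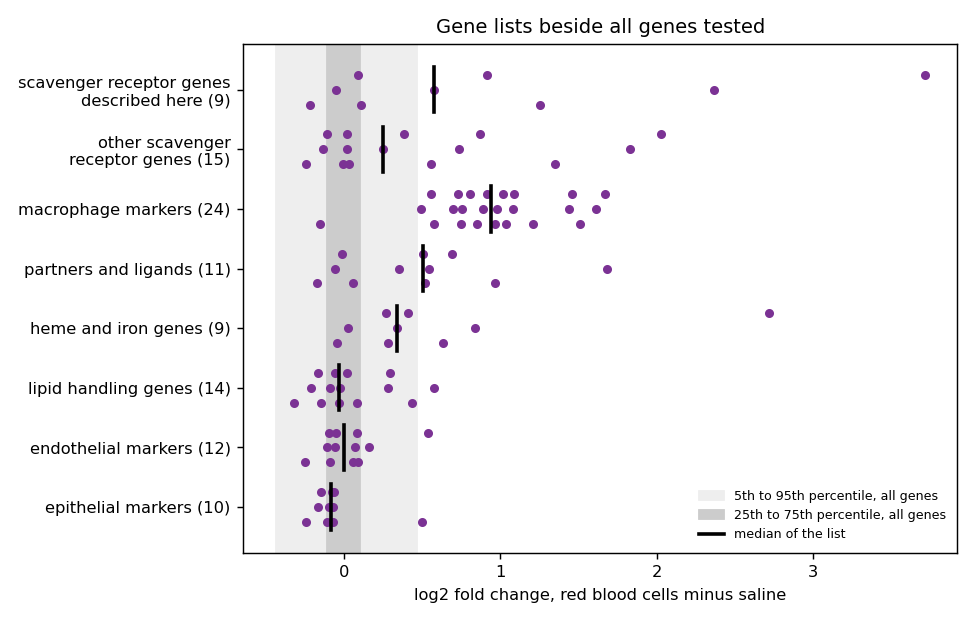
Log2 fold change (RBC minus saline) of each tested gene of 8 lists, with a black line at the list median and grey bands for all genes tested. Most macrophage markers lie to the right of the band that holds the 5th to the 95th percentile of all genes (-0.44 to 0.47), as do Marco, Msr1, Cd36, Cd163 and Stab1, while lipid, endothelial and epithelial genes centre near 0.

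Genes that work with these receptors were compared as lists. Of 13 partners and ligands (among them the co-receptors Tlr2, Tlr4, Tlr6 and Cd14), 11 were tested, 8 higher and 3 lower, with a median of 0.51 that was 0.32 without RBC 2. None was called by edgeR or limma-voom. In edgeR 6 had an unadjusted p under 0.05 (9.54% of all genes), and DESeq2 called 2 (1.86% of all genes). Of 10 heme and iron genes 9 were tested, 8 higher and 1 (Ncoa4) lower, with 0 called by edgeR. In edgeR 4 had an unadjusted p under 0.05 (9.54% of all genes). DESeq2 called 3 (1.86% of all genes) and limma-voom 1 (0.0605%). Hmox1, which degrades heme, had 331.6, 193.4 and 154.4 CPM with RBC and 25.8, 29.9, 24.0 and 61.9 CPM with saline (log2 fold change 2.72 ± 0.45, edgeR adjusted p = 0.138; 1.04e-05 with DESeq2 to 0.362 over the alternatives). Slc40a1, the iron exporter, had 79.6, 47.9 and 88.1 CPM with RBC and 39.5, 37.6, 36.4 and 48.1 CPM with saline (edgeR adjusted p = 0.194; 0.00138 with DESeq2, and 0.000877 to 0.449 over the alternatives). Lipid handling genes, among them Abca1 (-0.16 ± 0.07), Apoe (-0.09 ± 0.17), Npc2 (0.08 ± 0.08) and Vldlr (-0.06 ± 0.08), were higher for 6 and lower for 8 of 14 tested, with a median log2 fold change of -0.03. Of these 0 were called by edgeR, DESeq2 or limma-voom, and 2 had an unadjusted p under 0.05 in edgeR, against 9.54% of all genes.

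The receptors did not share a single pattern over the 7 libraries. Patterns were compared as log2 CPM (with a prior count of 2) minus the mean of the gene, by the root mean square difference over the 7 libraries. Marco and Msr1 differed by 0.654, and both peaked in RBC 2. Cd36 and Stab1 differed by 0.483, and Scarb2 and Colec12, which varied little, by 0.0941. Among genes with a mean count of at least 20 (12669 compared with Marco), those nearest to Marco were Bst2 (0.348), Ifi27 (0.508), H2-K1 (0.535), H2-Q4 (0.536) and Nfkbie (0.543). Marco was chosen for its rise with RBC, so genes that rose with RBC lie near it through that choice, and the distances are a description. Marco itself had a mean count of 11.9, with 1 to 3 counts per saline library. Bst2 and Ifi27 are interferon-induced genes, H2-K1 and H2-Q4 encode class I molecules and belong to a family with near-identical copies, and Nfkbie is an inhibitor of NF-kB. Nearest to Msr1 were Parp14 (0.145), B2m (0.248) and H2-M3 (0.265). Bst2 had 218, 533 and 179 CPM with RBC and 33.1 to 42.4 CPM with saline, and Parp14 30.4, 73.7 and 22.2 CPM with RBC and 7.36 to 15.2 CPM with saline.

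Nearest to Cd36 were Slc40a1 (0.313), Slc11a1 (0.346), which encodes a metal transporter of macrophage phagosomes, and Haspin (0.350), all with RBC 2 below RBC 1. Nearest to Cd163 were the macrophage genes Pf4 (0.382) and F13a1 (0.401) and then Tmem140 (0.421). F13a1 had 58.2, 120 and 115 CPM with RBC and 65.4, 35.5, 67.7 and 34.5 CPM with saline, and like Cd163 it had its lowest level in saline 4. Nearest to Stab1 were Adap2 (0.114), Nr4a2 (0.121) and Cd300a (0.125). For the 4 genes that varied least the nearest were Nol4l, Nomo1 and Nid2 (Scarb1), Numb, Tial1 and Septin2 (Scarb2), Crkl, Ncbp2 and Pdcd4 (Colec12) and Leo1, Aldh9a1 and Iqca (Scara5), all within 0.0454.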

How the data were processed

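Per the labels' protocols, directional libraries were made from polyadenylated RNA of pooled choroid plexus. The authors deposited whole-number read counts of each gene in 7 libraries, beside each gene's position and exon length, as featureCounts writes them per the file headers. Per the submitters' processing notes the tools were cutadapt 2.5, STAR 2.6.1b and featureCounts 2.0.6, with build GRCm39. The sources used here do not state strand and multi-mapping settings. Left out were 6 genes whose entries run over 2 lines, with the counts on the continuation lines (0.107% of the total).

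The test was edgeR 4.0.16's quasi-likelihood F test on these counts (R 4.3.3, robust, two-sided, TMM, genes kept by filterByExpr), red blood cells against saline, with no block. P-values were adjusted by Benjamini-Hochberg over the 14869 genes kept, with a threshold of 0.05. Standard errors derive from the F statistic. Every pair of libraries differed beyond sampling noise, with a chi-square per degree of freedom of 3.6 to 14.2. Alternatives used DESeq2 1.42.0, limma-voom (limma 3.58.1), other normalizations, filters and fits, a replicate block and each library left out. Leaving out RBC 2 together with saline 4 was added after seeing the data. The tests were also run on simulated counts, with changes placed only in genes with higher mean counts than Marco and Cd163. Recovery of changes in genes as scarce as these was not measured. The exact interval of the Marco ratio used scipy 1.17.1, and figures were drawn with matplotlib 3.10.9.

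The members and the lists were chosen with earlier results of these data known. Named genes are all 9 receptors, in each list the genes past the threshold and up to 4 others with the highest mean CPM, and the 5 genes nearest in pattern to Marco and 3 nearest to each other receptor. Hp, Folr2, Tlr2, Tlr4, Tlr6, Cd14, Hpx, Cxcl16, Cd44 and Cd68 were named after their values were seen. Levels per kb divide CPM by the deposited exon length.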

Additional observations from a re-analysis of the deposited data

Results flagged for a closer look

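In the 4 saline libraries, the highest or lowest value was tested for its distance from the others (Dixon's test at the 95% level) in 56 genes, the 9 receptors and the genes the list rule names. Chance flags about 1 in 20. None of the receptors stood out, and 7 other genes did, all with saline 4 as the library apart. Saline 4 had 475.1 CPM of Alb and 799.1 CPM of Afp, 39.2 CPM of Apoa1 and 63.8 CPM of Apoa2, where the other saline libraries had at most 1.28, 14.2, 2.98 and 1.03 CPM. It had 61.9 CPM of Hmox1, against 24.0 to 29.9 CPM in the other saline libraries, and 1436.1 CPM of Kcne2, against 1282 to 1308 CPM. Col1a2 was lowest there, with 498.4 CPM against 535 to 541 CPM. Among the receptors, saline 4 had the highest saline level of Msr1 (8.06 CPM) and Cd36 (10.8 CPM) and the lowest of Cd163 (1.84 CPM), within the limits of that test.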

How the results depend on the processing

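The 153 fold changes of the 9 receptors over 17 alternatives all kept their direction. With saline 4 and RBC 2 left out, 40 genes were called in all, 2 of them receptors other than Marco. Among the 40 were also 1 of the other scavenger receptor genes, 1 heme and iron gene, 1 lipid gene and 1 macrophage marker. DESeq2 called 277 genes, with 3 receptors other than Marco, 6 other scavenger receptor genes and 2 partners. It also called 3 heme and iron genes, 12 macrophage, 1 stromal and 1 epithelial marker. With no count filter edgeR called 136 genes, with 1 receptor other than Marco and 1 other scavenger receptor gene. It also called 2 partners, 1 heme and iron gene and 8 macrophage markers. Without robust estimation it called 16 genes, with 1 other scavenger receptor gene, 1 heme and iron gene and 2 macrophage markers. limma-voom called 1 heme and iron gene and 0 macrophage markers. Leaving out each library in turn, calls ran from 1 (without saline 1, 2 or 3) to 283 (without RBC 3) over all genes. They ran from 0 to 1 for the receptors other than Marco and 0 to 3 for other scavenger receptor genes. For partners and for heme and iron genes they ran from 0 to 2. For macrophage markers they ran from 0 to 8, and for endothelial and stromal markers from 0 to 1. These receptor counts leave out Marco, which was chosen on this comparison. The receptor count was 0 in the main comparison, 0 without each of the 4 saline libraries and 1 (Msr1) without RBC 2. The Marco count ratio ran from 10.9 to 17.9. The cause of these changes was not tested. Fits that leave a library out also have fewer samples. With the replicate number as a block, 2 genes, 0 receptors and 0 macrophage markers were called. Same-numbered libraries of the 2 groups had correlations of their deviations of -0.008, -0.173 and -0.173. Pairs with different numbers ran from -0.213 to 0.261. Whether same-numbered libraries share more than a number cannot be told from these values. Depth limits Marco most, with 1 to 3 counts per saline library.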

Other observations

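Haptoglobin and hemopexin, the plasma proteins that deliver hemoglobin to Cd163 and heme to Lrp1, had few counts and were each high in 1 library. Hp had 45 counts in RBC 2, against 2 and 6 in RBC 1 and 3 and 2 to 5 in the saline libraries. Hpx had 36 counts in saline 4, against 7, 3 and 3 in RBC 1 to 3 and 4 to 6 in the other saline libraries. Both fell below the count filter. RBC 2 had the highest summed neutrophil and monocyte markers (103.2 CPM), and saline 4 the highest summed hepatocyte markers (1436.3 CPM). The part of these markers in the Hp and Hpx values was not tested.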
